A study of Mus musculus with 2 samples.

Results

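The 10 genes described here, *Ern1*, *Eif2ak3*, *Atf6*, *Xbp1*, *Atf4*, *Ddit3*, *Hspa5*, *Hsp90b1*, *Bcap31* and *Ddrgk1*, belong to the unfolded protein response or act beside it in the membrane of the endoplasmic reticulum (ER). They came from a list of such genes whose rule used no measured value, though it was drawn up with earlier results of these data known, and each had a row among the 17774 genes of the deposited counts. Their counts were examined in single GFP-positive cones of 24-day-old C57BL/6 mice that carried the Pde6ccpfl1 mutation and, by a cross with the Chrnb4.eGFP line, a GFP transgene. The controls were cones of uninjected retinae. The treated cones came from retinae that received GSK-J4 at 10 µM by 1 intravitreal injection at postnatal day 14, with collection 10 days later. This age is that of the labels, which give it for both groups, but "adult" appears in the names of the treated cells, and the counts do not settle the age. GSK-J4 is an inhibitor of the demethylases that act on lysine 27 of histone H3. Both groups carried the mutation, and GFP is made wherever the Chrnb4 promoter is active, so the sort selects on the transgene and not on a cone protein. Each group was 1 library on 1 plate with 1 sorted cell per well. No library came from sham-injected retinae, so the drug, the injection with its vehicle and the plate cannot be told apart. Cells and wells are not replicates, no test was possible, and every interval below is a 95% interval for counting error alone. The cells were also compared by side of the uninjected plate, well columns 1 to 6 against columns 7 to 12.

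The ER folds secreted and membrane proteins, and the unfolded protein response is switched on when folding falls behind. *Ern1* encodes IRE1, *Eif2ak3* encodes PERK and *Atf6* encodes ATF6, the sensors in the ER membrane. IRE1 splices the mRNA of *Xbp1*, PERK slows translation through eIF2α while translation of *Atf4* goes up, and ATF4 raises *Ddit3*, which encodes the death-linked factor CHOP. *Hspa5* (BiP) and *Hsp90b1* (GRP94) are chaperones of the ER lumen and standard targets of the response. *Bcap31* encodes an ER membrane protein that helps export membrane proteins and is cleaved in apoptosis, and *Ddrgk1* encodes an ER adaptor of ufmylation, the attachment of the small modifier UFM1. In photoreceptors the ER carries a heavy load of opsin and channel proteins.

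The sequence just before the start site is shown for the 2 chaperone genes, which carry the ER stress response element. It is also shown for *Bcap31* and *Ddrgk1*, the 2 genes of ER membrane proteins other than the sensors. Both had more counts in columns 1 to 6 of the uninjected plate. Each run is the 250 bases before the RefSeq start site on GRCm38.p6, 5′ to 3′ on the strand of the gene, with the ER stress response element in capitals. They lie at chr2:34771840-34772089 (plus strand, *Hspa5*), chr10:86705445-86705694 (minus strand, *Hsp90b1*), chrX:73716205-73716454 (minus strand, *Bcap31*) and chr2:130664646-130664895 (minus strand, *Ddrgk1*).
Hspa5: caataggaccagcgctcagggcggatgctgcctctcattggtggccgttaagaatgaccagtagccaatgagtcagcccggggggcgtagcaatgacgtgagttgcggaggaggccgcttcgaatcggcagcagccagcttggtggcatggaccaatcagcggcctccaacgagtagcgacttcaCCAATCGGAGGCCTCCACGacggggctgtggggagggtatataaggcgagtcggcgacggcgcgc
Hsp90b1: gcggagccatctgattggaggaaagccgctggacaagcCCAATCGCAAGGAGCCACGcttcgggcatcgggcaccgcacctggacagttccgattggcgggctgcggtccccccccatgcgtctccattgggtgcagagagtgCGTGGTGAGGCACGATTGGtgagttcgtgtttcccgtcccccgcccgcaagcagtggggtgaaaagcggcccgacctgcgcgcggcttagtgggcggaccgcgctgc
Bcap31: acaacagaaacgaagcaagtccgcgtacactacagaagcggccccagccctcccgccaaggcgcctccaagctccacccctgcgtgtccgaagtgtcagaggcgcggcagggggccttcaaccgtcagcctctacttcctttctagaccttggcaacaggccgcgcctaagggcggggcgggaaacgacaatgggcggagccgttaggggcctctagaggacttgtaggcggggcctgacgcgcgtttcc
Ddrgk1: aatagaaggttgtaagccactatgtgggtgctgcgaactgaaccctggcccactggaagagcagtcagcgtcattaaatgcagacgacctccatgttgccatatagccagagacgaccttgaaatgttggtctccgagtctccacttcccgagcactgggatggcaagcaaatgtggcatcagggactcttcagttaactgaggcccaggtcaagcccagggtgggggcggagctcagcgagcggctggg
The element was searched on both strands as CCAAT, any 9 bases and then CCACG, in windows of 250 bases before and 50 after the start. *Hspa5* held 1 match, at -65 to -47 from the start, and *Hsp90b1* held 2, at -212 to -194 on its own strand and at -107 to -89 on the other. Of 32851 RefSeq start-site windows, 39 (0.119%) held a match. The unfolded protein response element TGACGTG was found in *Hspa5* alone of the 9 genes with a window, at -157 to -151, and in 2.01% of all windows. The cyclic AMP response element, TGACG followed directly by TCA, shares its first letters with it and was found in 1.79% of all windows but in none of the 9. The element bound by ATF4 with C/EBP factors, TGATG, any base and then AA, was found in 3.97% of all windows and likewise in none of the 9. *Atf6* had no window in the table. These are matches of letters only.

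The uninjected library kept 82 of 85 cells, with 1113424 counts in all and a median of 8118 per cell (860 to 98250). The GSK-J4-treated library kept 64 of 66 cells, with 208578 counts and a median of 2335.5 (420 to 15371). The libraries shared no cell name, and 57 well positions held a cell on both plates. All 82 uninjected cells had counts of the 11 cone markers, which took 2.59% of their counts. In the library labelled GSK-J4-treated these markers took 0.213%, 50 of 64 cells had no count of any of them, and *Opn1sw*, *Gngt2*, *Cngb3*, *Pde6c* and *Guca1a* were at 0. The treated library thus went against its cone label for most of its cells, and the part of this in the differences below was not tested apart from the comparison with the 14 cells that had a marker. On the uninjected plate, columns 1 to 6 held 39 cells with 546722 counts (median 8819 per cell) and columns 7 to 12 held 43 cells with 566702 counts (median 7163). Cone markers took 2.48% and 2.69% of the counts on these sides, rod markers 0.319% and 0.184%, and Müller glia markers 0.134% and 0.0840%. The part of the rod and glia counts in the differences between sides was not tested.

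Of the 10 genes, *Atf4*, *Ddit3*, *Xbp1*, *Bcap31* and *Ddrgk1* were higher in columns 1 to 6 of the uninjected plate than in columns 7 to 12. These 5 genes had at most 1 count each in the whole GSK-J4-treated library, as did *Hspa5* and *Atf6*. How many of all genes had so few treated counts was not counted, and the treated library held 208578 counts against 1113424. *Hspa5* had more counts in columns 7 to 12, and *Ern1*, *Atf6* and *Hsp90b1* had at most 5 counts each over all uninjected cells. Levels are given as counts per 10000 counts of a cell, and log-folds are differences between groups in ln(mean level + 1). A gene was read against a limit of 0.3 log-fold where 10% or more of the cells in 1 of the groups had a count of it. Between the libraries, 8 of the 10 genes could be read, 5 of them lower and 1 higher in GSK-J4-treated cells, while 24% of 7682 genes were lower and 20.4% were higher. The median log-fold was -0.53 over the 8 genes and -0.0050 over all genes read. Between the sides, 7 of the 10 genes could be read, 5 of them higher and 0 lower in columns 1 to 6, while 15.9% of 8823 genes were higher and 14.6% were lower. The median log-fold was 0.80 over the 7 genes and 0.017 over all genes read. Both comparisons share the uninjected cells, so that the same cells enter both counts of 5 genes. The 10 genes were listed with earlier results of these data known, so shares above those of all genes cannot count as support. In a wider list of the pathway, given below, 15 of 63 genes were higher and 14 lower in columns 1 to 6.

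**Figure D1:**
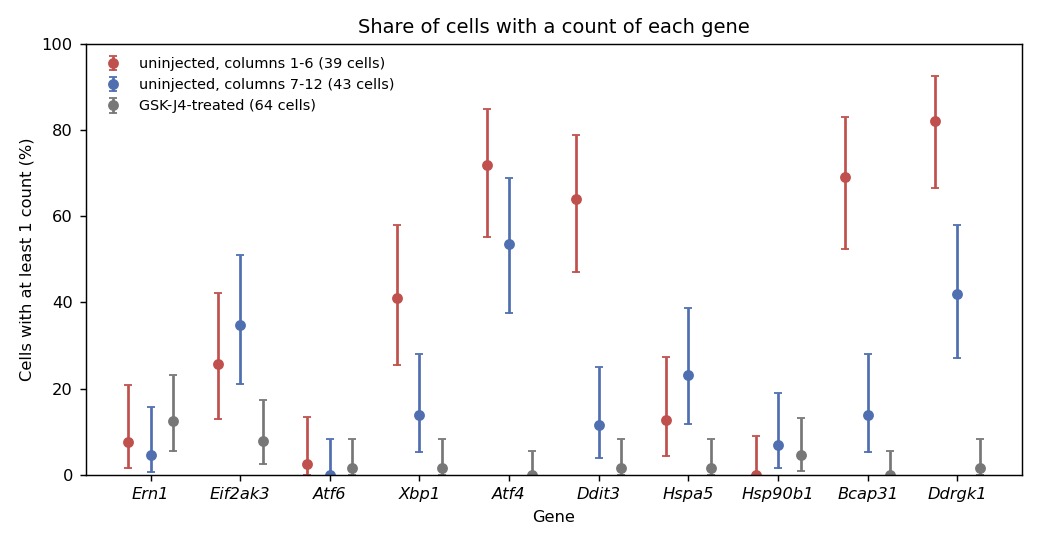
Share of cells with at least 1 count of each gene (%, vertical axis) for the 39 uninjected cells of columns 1 to 6 (red), the 43 of columns 7 to 12 (blue) and the 64 GSK-J4-treated cells (grey), with exact binomial 95% intervals as bars. The red and blue intervals do not overlap for *Ddit3*, *Bcap31* and *Ddrgk1*, and how often this holds over all genes was not counted. The grey points are at or near 0 for all genes but *Ern1*, *Eif2ak3* and *Hsp90b1*.

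The 3 sensors were sparse. *Eif2ak3* (chr6:70844515-70905245, plus strand) had 116 counts (95.9 to 139) in 25 of 82 uninjected cells, 28 of them in well D06, and 14 counts (7.65 to 23.5) in 5 of 64 GSK-J4-treated cells. As a share of all counts this was 0.644 times the uninjected level (0.342 to 1.13), an interval that includes no difference, and the log-fold was -0.083. The sides had 51 counts in 10 cells of columns 1 to 6 and 65 counts in 15 cells of columns 7 to 12, a ratio of 0.813 (0.552 to 1.19). PERK mRNA was thus the member with the least separation between sides among those with more than 100 counts. *Ern1* (chr11:106394650-106487852, minus strand) was the 1 gene higher in the treated library, with 5 counts in 5 uninjected cells and 14 counts in 8 treated cells. The log-fold was 0.54 and the ratio of shares 14.9 (5.09 to 53.0). Well C02 held 7 of the 14 counts, and the log-fold without the cell with the highest level was 0.39. The treated counts also lay unevenly on their own plate, 12 in columns 1 to 6 and 2 in columns 7 to 12, while the uninjected sides had 3 and 2. *Atf6* (chr1:170704674-170867771, minus strand) had 1 count in 1 cell of each library and was removed by the filter that asks for a count in 3 cells.

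*Atf4* (chr15:80255184-80257541, plus strand), the factor downstream of PERK, had 342 counts (307 to 380.2) in 51 of 82 uninjected cells and 0 counts in 64 GSK-J4-treated cells. The treated level was at least 21.4-fold lower against a floor of 3 counts for the library, with a log-fold of -1.43. This floor, used for each fold given as at least, is not a 95% limit, and 0 counts have a 95% upper limit of 3.69. As a share, 0 of 64 cells has an exact upper bound of 5.601% (4.69% from a floor of 3 cells). Within the uninjected plate, 247 counts lay in 28 of 39 cells of columns 1 to 6 and 95 in 23 of 43 cells of columns 7 to 12. The lowest cell of each side was at 0, the medians were 1.86 and 0.448 per 10000, and the highest cells were at 55.8 and 15.4. *Atf4* was thus found on both sides and differed in amount, with a ratio of 2.70 (2.12 to 3.45) and a log-fold of 0.80, while the shares of cells, 71.8% (55.1 to 85.0%) and 53.5% (37.7 to 68.8%), overlapped. Well C01 held 47 counts, and the log-fold without the cell with the highest level was 0.54.

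*Ddit3* (chr10:127290774-127296288, plus strand), the gene of CHOP, had 107 counts (87.7 to 129) in 30 uninjected cells and 1 count in 1 GSK-J4-treated cell, 20.04-fold lower (3.52 to 799) with a log-fold of -0.64. It separated the sides more than *Atf4* did by share of cells. A count was present in 25 of 39 cells of columns 1 to 6 (64.1%, 47.2 to 78.8%) and in 5 of 43 cells of columns 7 to 12 (11.6%, 3.89 to 25.1%). The sums were 98 and 9 counts, a ratio of 11.3 (5.71 to 25.4), and the log-fold was 0.85. Each of columns 1 to 6 had counts, with column means from 0.524 to 4.75 per 10000, while 3 of the 6 columns from 7 to 12 had none and the highest mean among them was 1.04. *Ddit3* shares 68 exonic bases with *Mars* on the other strand, and 105 with another gene model of the same name. Strand was not stated for the counting, so reads in the bases shared with *Mars* cannot be assigned with certainty.

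*Xbp1* (chr11:5520659-5525893, plus strand), the mRNA spliced by IRE1, had 68 counts (52.8 to 86.2) in 22 uninjected cells and 1 in the treated library, 12.7-fold lower (2.21 to 510) with a log-fold of -0.41. These gene counts do not separate the spliced from the unspliced form. The sides had 60 counts in 16 cells of columns 1 to 6 and 8 counts in 6 cells of columns 7 to 12, a ratio of 7.77 (3.70 to 18.8) and a log-fold of 0.44. Well A04 alone held 18 counts, and among the wells of rows E to H the log-fold was 0.23, under the limit. The intervals of the shares, 41.0% (25.6 to 57.9%) and 13.95% (5.30 to 27.9%), overlapped.

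**Figure D2:**
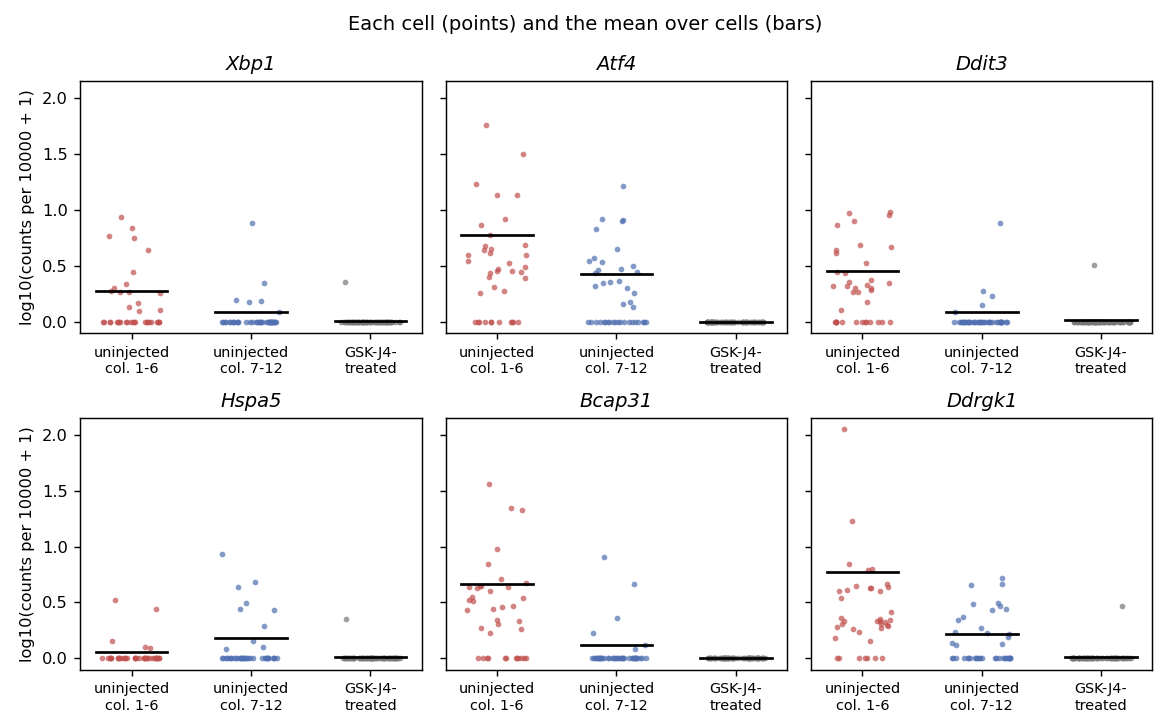
Level of 6 genes in each cell, as log10 of counts per 10000 plus 1, for uninjected cells of columns 1 to 6 (red, 39 cells), of columns 7 to 12 (blue, 43 cells) and GSK-J4-treated cells (grey, 64 cells), with horizontal bars at the mean level of each group on the same scale. *Xbp1*, *Atf4*, *Ddit3*, *Bcap31* and *Ddrgk1* have their higher mean in columns 1 to 6, *Hspa5* has it in columns 7 to 12, and every group has cells at 0.

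The 2 chaperone genes had few counts, and neither was beyond the limit between the sides. *Hspa5* (chr2:34771970-34777547, plus strand) had 24 counts (15.4 to 35.7) in 15 uninjected cells, 5 of them in 5 cells of columns 1 to 6 and 19 in 10 cells of columns 7 to 12. BiP mRNA was thus 3.67-fold higher (1.32 to 12.6) in columns 7 to 12 as a share of counts, the direction opposite to *Ddit3*. Its log-fold for columns 1 to 6 was -0.29, just under the limit, and -0.18 without the cell with the highest level. All 6 columns from 7 to 12 had a count, against 4 of the 6 columns from 1 to 6. Within columns 1 to 6, all 5 cells with *Hspa5* also had *Xbp1*, and the Spearman correlation was 0.54. Within columns 7 to 12, 2 cells had both genes, and the correlation was 0.10. At an equal depth of 867 counts per cell, 1 cell on each side had a count, so the direction was not detectable at that depth. The treated library had 1 count, 4.50-fold lower with an interval from 0.733 to 185 that includes no difference. *Hsp90b1* (chr10:86690209-86705509, minus strand) had 3 counts in 3 cells of each library, the uninjected ones all in columns 7 to 12, which is too few to read a direction. It shares 415 exonic bases with 1810014B01Rik on the other strand.

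Of the ER membrane genes other than the sensors, *Bcap31* had the highest ratio of counts between sides among the 10 genes, and *Ddrgk1* had a lower ratio than *Ddit3* or *Xbp1*. *Bcap31* (chrX:73686178-73716175, minus strand) had 333 counts (298 to 371) in 33 of 82 uninjected cells and 0 in the GSK-J4-treated library, at least 20.8-fold lower with a log-fold of -1.06. Of the uninjected counts, 315 lay in 27 of 39 cells of columns 1 to 6 and 18 in 6 of 43 cells of columns 7 to 12, a ratio of 18.1 (11.3 to 31.0) and a log-fold of 1.26. The shares of cells were 69.2% (52.4 to 83.0%) and 13.95% (5.30 to 27.9%). The median cell was at 1.79 per 10000 in columns 1 to 6 and at 0 in columns 7 to 12, and the highest cells were at 35.0 and 7.10. Every column from 1 to 6 had a higher mean (1.18 to 7.49 per 10000) than every column from 7 to 12 (0 to 0.888), with 5 to 7 and 6 to 8 cells per column. Well D06 held 138 counts, 41.4% of the uninjected sum. *Bcap31* and *Atf4* were also the only 2 of the 10 genes with no count in the treated library.

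*Ddrgk1* (chr2:130653960-130664659, minus strand) had 186 counts (160.2 to 215) in 50 of 82 uninjected cells and 1 in the treated library, 34.8-fold lower (6.18 to 1384) with a log-fold of -1.27. Of the uninjected counts, 141 lay in 32 of 39 cells of columns 1 to 6 and 45 in 18 of 43 cells of columns 7 to 12, a ratio of 3.25 (2.31 to 4.65). The shares of cells were 82.1% (66.5 to 92.5%) and 41.9% (27.0 to 57.9%), the medians 1.16 and 0 per 10000, and the highest cells 111 and 4.25. The log-fold of 1.27 leaned on 1 cell, in well A02, and was 0.62 without it and 0.44 among cells with at least 2000 counts. The ranges of the *Ddrgk1* column means touched, with 1.15 per 10000 in column 4 as the lowest of columns 1 to 6 and 1.16 in column 11 as the highest of columns 7 to 12.

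**Figure D3:**
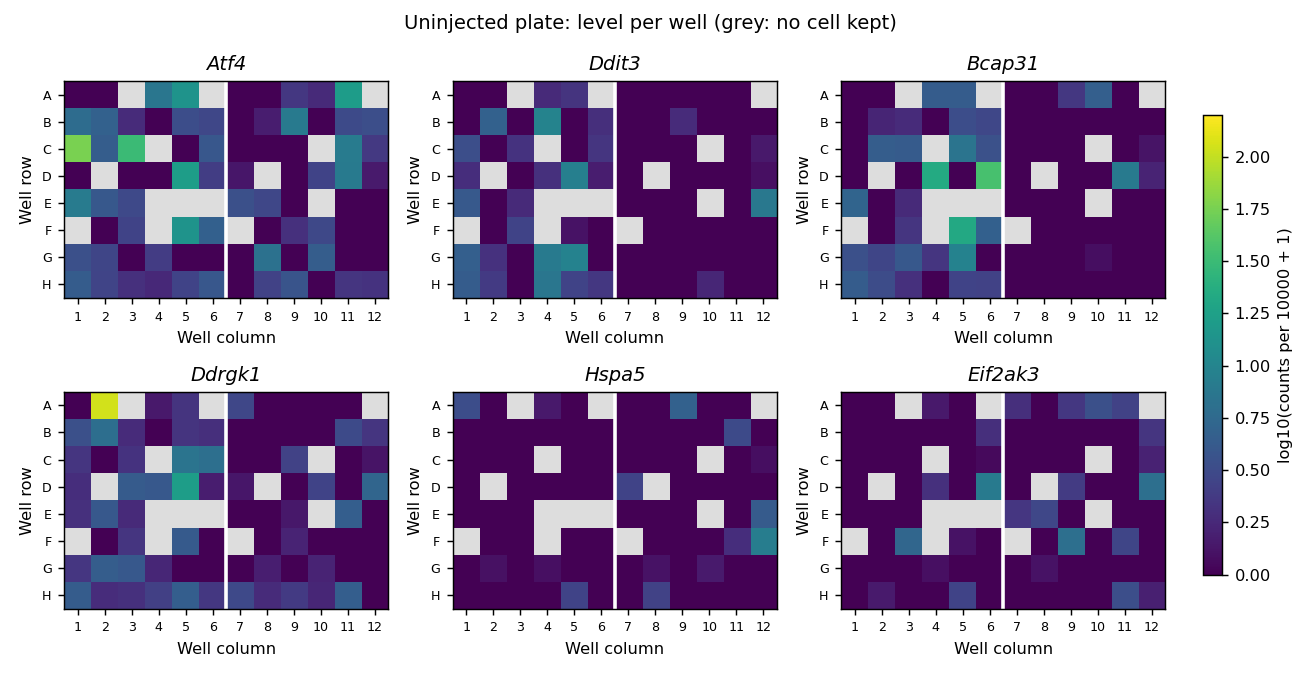
The uninjected plate, rows A to H and well columns 1 to 12, coloured by log10 of counts per 10000 plus 1 for 6 genes, with grey for wells without a cell that was kept and a white line between columns 6 and 7. *Bcap31* and *Ddit3* are found in wells of each column left of the line and in few wells right of it, *Atf4* and *Ddrgk1* are found on both sides, and *Hspa5* and *Eif2ak3* are sparse on both.

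The difference between sides was read in parts of the plate as well. All 5 genes were higher beyond the limit next to the border, columns 4 to 6 against 7 to 9. The same held in rows A to D, and for 4 of the 5, all but *Xbp1*, in rows E to H. Of the 10 genes, 8, 7 and 8 could be read in these parts, in this order, with 0, 0 and 1 lower. Over all genes read, 18.8%, 16.99% and 14.9% were higher, and 16.4%, 15.3% and 14.6% were lower. The parts use wells of the main comparison and are not independent of it. The sides had similar depth, and at 867 counts per cell the number of cells with a count in columns 1 to 6 (39 cells) and columns 7 to 12 (42 cells) was 7 and 1 for *Bcap31*, 3 and 0 for *Ddit3*, 4 and 0 for *Xbp1*, 5 and 1 for *Ddrgk1* and 6 and 6 for *Atf4*. The *Atf4* log-fold was then 0.24, under the limit. With a count in so few cells, this depth cannot show whether its difference in amount held. *Eif2ak3* had a count in 1 and 5 cells.

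The treated library was also set against each side. Against columns 7 to 12 alone, the log-folds in GSK-J4-treated cells were -0.97 for *Atf4*, -0.47 for *Ddrgk1* and -0.40 for *Hspa5*, beyond the limit, and -0.27 for *Bcap31*, -0.18 for *Xbp1* and -0.15 for *Ddit3*, within it. Against columns 1 to 6 alone they were -1.77 for *Atf4*, -1.74 for *Ddrgk1* and -1.53 for *Bcap31*. The call of lower levels in treated cells therefore depended on the side for *Bcap31*, *Xbp1*, *Ddit3* and *Hspa5*, and not for *Atf4* and *Ddrgk1*. Treated cells were also shallower, and at 867 counts per cell *Atf4* had a count in 12 of 81 uninjected cells (14.8%, 7.90 to 24.4%) and in 0 of 50 treated cells (upper bound 7.11%). *Bcap31* then had a count in 8 of 81 uninjected cells (9.88%, 4.36 to 18.5%) and *Ddrgk1* in 6 (7.41%, 2.77 to 15.4%), against 0 of 50 treated cells each, so that their intervals overlapped. Among the 14 treated cells with a cone marker count, 6 of the genes were lower and 1 was higher than in uninjected cells, where 24.3% of all genes read were lower and 24.3% higher, the sixth lower gene being *Eif2ak3* with a log-fold of -0.30.

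At full depth, single cells of the uninjected plate held several of the genes at once. In columns 1 to 6 a cell had counts of a median of 4 of the 9 genes kept by the filter (0 to 8), and 25 of 39 cells (64.1%) had counts of 3 or more. In columns 7 to 12 the median was 2 (0 to 6), and 15 of 43 cells (34.9%) had 3 or more. In the treated library the median was 0 (0 to 3), with 48 of 64 cells without a count of any of them. Together the genes took 0.168% of the counts in columns 1 to 6, 0.0466% in columns 7 to 12 and 0.0168% in treated cells. Within columns 1 to 6, *Ddit3* and *Bcap31* were found together in 20 cells, apart in 5 and 7 cells, and both were missing in 7. Their Spearman correlation was 0.44 over the 82 uninjected cells but 0.058 within columns 1 to 6 and 0.22 within columns 7 to 12. *Atf4* and *Ddit3* likewise had 0.30 over all and 0.24 and 0.0089 within the sides. Cells of 1 plate share the library, and cell depth enters each of these values.

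A wider list of 97 genes of the pathway, 90 of them with a row, showed no common direction between the sides. Of 63 that could be read, 15 were higher and 14 lower in columns 1 to 6, with a median log-fold of -0.023. Over all genes read, 15.9% were higher and 14.6% lower, and the parts of the list by role are small. Genes of the eIF2α arm had 2 higher and 2 lower of 10, other transcription factors and targets 1 and 1 of 8, chaperones and foldases 2 and 2 of 18, and ER-associated degradation, which sends misfolded proteins to the proteasome, 2 and 6 of 14. Ufmylation genes had 3 higher and 1 lower of 4, and genes of ER membrane insertion, export or cell death 5 and 2 of 9. Neither of the other sensors listed, *Ern2* and *Atf6b*, could be read.

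The highest log-folds of the wider list in columns 1 to 6 were 1.22 for *Impact*, an inhibitor of the eIF2α kinase GCN2, 1.11 for *Ufsp1*, a protease of UFM1, and 0.96 for *Selenos*, a selenoprotein of the degradation complex. *Impact* had 239 and 40 counts by side, a ratio of 6.19 (4.42 to 8.89), *Ufsp1* had 73 and 0, at least 25.2-fold higher, and *Selenos* had 137 and 7, a ratio of 20.3 (9.58 to 51.4), against a range of ratios from 2.70 to 18.1 in the 5 genes above. Single cells weighed heavily, since well C03 held 93 counts of *Impact* and 50 of *Ufsp1*, and well B02 held 82 of *Selenos*. Without the highest cell of each gene, the log-folds were 0.57 for *Impact*, 0.51 for *Ufsp1* and 0.65 for *Selenos*. Next to the border, columns 4 to 6 against 7 to 9, *Impact* was at 0.065, under the limit. *Ufsp1* was at 0.49 and *Selenos* at 0.59 there. The lowest were -1.26 for *Eif2b5*, a subunit of the exchange factor eIF2B, -0.80 for *Emc4*, a subunit of the ER membrane insertase, and -0.60 for *Ufc1*, the conjugating enzyme of UFM1. *Eif2b5* had 1 count in columns 1 to 6 and 124 in columns 7 to 12, of which well F10 held 77, so that genes of the same arm lay on opposite sides. Without its highest cell, *Eif2b5* was at -0.58. *Emc4* had 194 and 271 counts and *Ufc1* 1 and 18, and with summed counts their log-folds were -0.24 and -0.26, under the limit. The ufmylation genes *Ufsp1* and *Ddrgk1* were thus high where *Ufc1* was low. For *Eif2b2* (log-fold 0.33, with 10 and 43 counts) and *Canx* (-0.32, with 38 and 19 counts), singled out after their values were seen, the mean over cells and the summed counts pointed in opposite directions.

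Between the libraries, 56 genes of the wider list could be read, of which 5 were higher and 19 lower in GSK-J4-treated cells. Over all genes read, 20.4% were higher and 24% lower. The median log-fold of the list was -0.18, and its parts by role are small. The eIF2α arm had 0 higher and 4 lower of 10, transcription factors and targets 0 and 0 of 5, chaperones and foldases 2 and 5 of 14, and ER-associated degradation 3 and 4 of 14. Ufmylation genes had 0 and 2 of 3, and ER membrane or death genes 0 and 4 of 10. The lowest were *Spcs1*, a subunit of the signal peptidase, at -1.56, *Fkbp2*, a prolyl isomerase of the ER, at -1.50 and *Emc4* at -1.49. All 3 had 0 treated counts against 536, 535 and 465 uninjected counts, at least 33.5-fold, 33.4-fold and 29.0-fold lower. These genes had counts on both sides of the uninjected plate, with 281 and 255 for *Spcs1* and 274 and 261 for *Fkbp2*. The highest were *Ube2g2*, a ubiquitin-conjugating enzyme, at 0.70 with 4 uninjected and 10 treated counts, *Rnf139*, a ubiquitin ligase of the ER, at 0.61 with 1 and 8 counts, and *Creld2*, a secreted target of the response, at 0.54 with 918 and 277 counts. *Creld2* was the 1 gene of these with counts in most cells of both libraries, 70 of 82 and 49 of 64, and its log-fold was -0.091 with median-ratio size factors and 0.22 without its highest cell. *Rnf139* was at 0.10 without its highest cell, at 0.19 among cells with at least 2000 counts and at 0.21 among treated cells with a cone marker, and *Ube2g2* was at 0.20 and 0.073 in the last 2 of these, all under the limit.

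**Figure D4:**
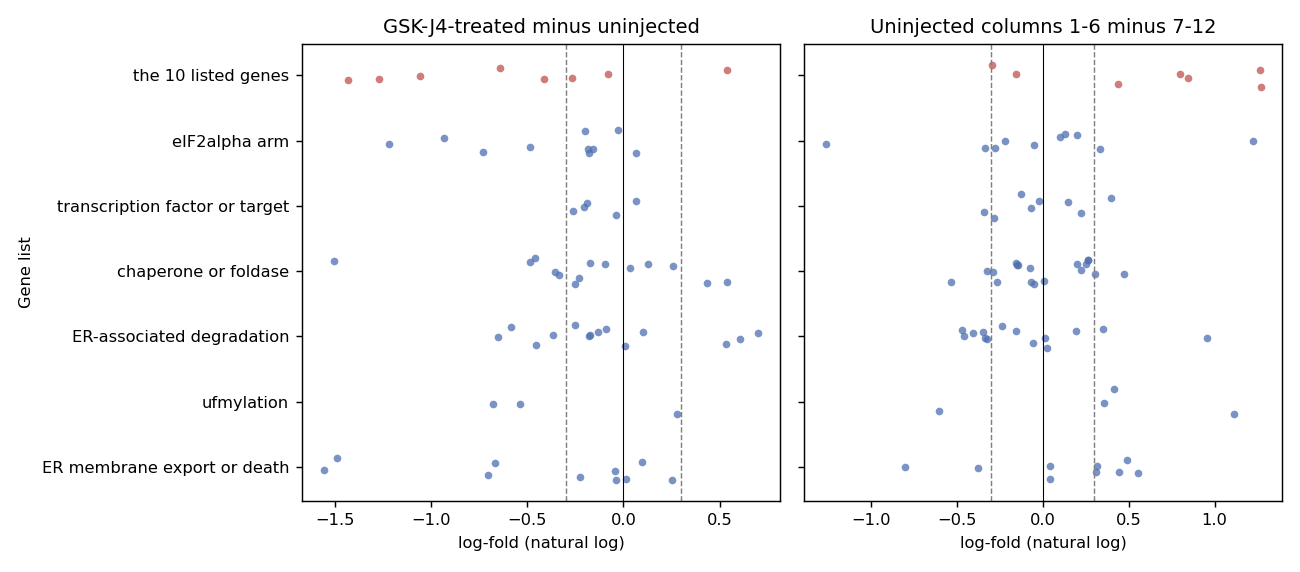
Log-fold (natural log, horizontal axis) of the 10 genes (red, those that could be read) and of the wider list by role (blue), for GSK-J4-treated minus uninjected cells on the left and for columns 1 to 6 minus 7 to 12 of the uninjected plate on the right, with dashed lines at the limits of 0.3. In the right panel 5 red points lie above the upper limit and none below the lower, while the blue points spread to both sides, 15 above and 14 below. Over all genes read, 15.9% lie above and 14.6% below.

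The genes most like each member were taken by Spearman correlation of levels over the 82 uninjected cells, over the 2643 genes found in 25% or more of these cells. For *Bcap31* these were *Mvd* (0.65), *Gm29152* (0.61) and *Eif3h* (0.59). *Mvd*, an enzyme of sterol synthesis, had counts in 22 cells of columns 1 to 6 and in 0 cells of columns 7 to 12, and its correlation with *Bcap31* within columns 1 to 6 was 0.37. For *Ddit3* they were *Ankrd33* (0.60), *Spr* (0.58) and *Snhg12* (0.57), with 0.29, 0.35 and 0.29 within columns 1 to 6. For *Ddrgk1* they were *Ndufa8* (0.50), *Anapc11* (0.46) and *Ralgps1* (0.45).

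For *Atf4* they were *Bcl2l1*, the gene of the survival factor BCL-XL (0.52), *Srek1* (0.47) and *Selenos* (0.44). The *Bcl2l1* correlation was 0.57 within columns 1 to 6 and 0.20 within columns 7 to 12, where 3 cells had a count. For *Xbp1* they were *Slx4ip* (0.60), *Sra1* (0.57) and *Sugp1* (0.56), and *Slx4ip* stood out by a value of 0.81 within columns 1 to 6 and 0.44 within columns 7 to 12. For *Eif2ak3*, which did not separate the sides, they were *Commd9* (0.58), *Mterf4* (0.54) and *Epha10* (0.53), and *Commd9* had 0.54 within each side. Many of these genes lay on the same side of the plate as the member, so that a correlation over all cells and the side of the plate overlap.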

How the data were processed

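The authors sorted single cells into plates, aligned reads in the CLC Genomics Workbench (v.20), collapsed PCR duplicates through mapping position and a UMI of 8 nt, and ran featureCounts with Gencode M17 to count them. The paper and labels name the genome GRCh38, a human build number. The authors deposited whole-number counts per gene and cell, the 3′ and 5′ counts summed, without normalization. Here genes found in 3 or more cells were kept, and cells with 200 or more genes and no more than 5% mitochondrial counts (15947 genes, with 9 of the 10 members and 84 of the wider list). Counts were scaled to 10000 per cell and averaged, with a pseudocount of 1 (Python 3.11.15, pandas 2.3.3, numpy 2.4.6, scipy 1.17.1). No batch correction or doublet caller was applied. Intervals are exact Poisson, Clopper-Pearson for shares and exact conditional for ratios, at 95%. Cells were thinned to 867 counts, leaving out 1 uninjected and 14 treated cells. Gene positions are from GENCODE M21 (GRCm38). The calculation was tested on simulated data. The members and lists were chosen with earlier results of these data known. Named genes were the members, the 3 highest and 3 lowest of the wider list in each comparison, and the 3 genes most correlated with each member with a count in at least 25% of uninjected cells. Cone markers were named where cell identity was checked. Alternatives were all genes and cells, summed counts, median-ratio size factors, thinning, a pseudocount of 0.1, cells with at least 2000 counts, each gene without its highest cell, and parts of the plates.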

Additional observations from a re-analysis of the deposited data

How the results depend on the processing

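No paired analysis was possible because each group was 1 library and no test was run. Of the alternative log-folds of single members, 104 stayed within counting error of the value reported and 76 moved beyond it, and none of a gene beyond the limit changed sign. For the named genes of the wider list these were 48 and 71, and 1 changed sign, *Creld2* to -0.091 with median-ratio size factors, which moved the median of all genes from -0.0050 to -0.14 between the libraries, with 34.0% of genes lower and 8.14% higher. Thinning moved that median to 0.22, and to 0.12 between the sides. The counts of genes beyond 0.3 that moved by over 1.5 times were as follows, and apart from the fewer genes read after thinning the cause was not tested. After thinning, 1 member (of 1 that could be read) was lower and 0 higher in treated cells, 5 and 2 of 8 in the wider list, and by side 3 of 5 members were higher and 1 lower in columns 1 to 6, with 8 and 2 of 13 in the wider list. Over all genes read after thinning, 37.1% were lower and 46.3% higher in treated cells, and 39.4% were higher and 30.5% lower in columns 1 to 6. With a pseudocount of 0.1 the wider list had 36 lower and 10 higher in treated cells and 25 higher and 26 lower in columns 1 to 6, where 2 members were lower, while over all genes read 40.9% were lower and 38.2% higher in treated cells and 37.8% higher and 32.5% lower in columns 1 to 6. Without the cell with the highest level of each gene it had 3 higher in treated cells, and 8 higher and 7 lower in columns 1 to 6, against 11.4%, 10.6% and 10.2% of all genes read, in this order. It had 8 higher in treated cells with summed counts (19.3% of all genes read) and 0 with median-ratio size factors (8.14%). Against columns 7 to 12 alone 3 members were lower in treated cells (24.5% of all genes read), and in rows E to H 1 member was lower in columns 1 to 6 (14.6%). The treated depth, a median of 2335.5 counts per cell, limits what an absent count can show.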
